A study of Mus musculus with 10 samples.

Results

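The genes described here are 9 transcripts of the adipokine system in brown fat, chosen by name: 6 secreted ligands (*Adipoq*, *Lep*, *Retn*, *Rbp4*, *Nampt* and *Rarres2*) and the 3 genes for proteins that bind adiponectin (*Adipor1*, *Adipor2* and *Cdh13*). All 9 were found among the 27267 genes listed for the series, and all 9 were among the 13714 genes that passed the filter for testing, a mean of at least 10 normalized counts. RNA came from interscapular brown adipose tissue (iBAT), the thermogenic fat depot between the shoulder blades, of chow-fed C57BL/6 mice labelled male, 4 weeks old. The groups were 5 wild-type mice and 5 mice labelled with a global knockout of *Mgp* (*Mgp*-KO), the gene for matrix Gla protein, an inhibitor of bone morphogenetic proteins. The deletion is described as global, that is in every tissue, so the comparison does not separate fat from other organs. A normalized count is the number of reads on a gene divided by the size factor of its library.

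The libraries held 9253793 to 22252260 reads on genes, and the 9 genes had 60 to 22610 reads in a library. Replicates 1 to 3 of both groups held 19616366 to 22252260 reads and 0.771 to 1.72% mitochondrial ribosomal RNA, whereas replicates 4 and 5 held 9253793 to 13281873 and 6.50 to 16.7%. The labels name no batch, and these sets were defined from earlier results of the same data. The brown adipocyte marker *Ucp1*, the uncoupling protein of thermogenesis, stood at 2201 normalized counts or more in all libraries. Other such markers were low in some libraries labelled *Mgp*-KO, with *Elovl3* down to 5.28 and *Dio2* to 10.7 normalized counts. Reads of *Mgp* numbered 0, 1 and 1 in libraries 1, 2 and 3 labelled *Mgp*-KO but 309 and 282 in those labelled *Mgp*-KO 4 and 5. In normalized counts, the labelled *Mgp*-KO 4 and 5 stood at 500 and 331, against 576, 489, 466, 1146 and 839 in wild-type libraries 1 to 5. This goes against the labels of *Mgp*-KO 4 and 5, so the groups are named by their labels and results are also given without these libraries. That comparison keeps wild type 4 and 5, so it is unbalanced for the replicate sets and a difference between the sets enters it, whereas replicates 1 to 3 alone are balanced. In wild type 2, *Xist* stood at 5094 normalized counts and 4 Y chromosome genes together at 3.74, against 0.754 to 43.97 and 1457 to 7035 in the other libraries, which goes against its male label.

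Adipokines are proteins that fat secretes into the circulation. Adiponectin (*Adipoq*) acts through the multi-pass membrane receptors AdipoR1 and AdipoR2, which have ceramidase activity and are linked to AMP-activated protein kinase and PPARα, and its high molecular weight forms also bind T-cadherin (*Cdh13*), which is anchored to the membrane by lipid. Leptin (*Lep*) reports fat stores to the brain and is more typical of white than of brown adipocytes. Retinol binding protein 4 (*Rbp4*) carries vitamin A in blood, chemerin (*Rarres2*) attracts immune cells, resistin (*Retn*) in mice comes from adipocytes, and *Nampt* encodes the rate-limiting enzyme of NAD salvage, which is also found outside cells as visfatin.

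Of these genes, *Adipor2* and *Rbp4* had lower mRNA in each of the 5 libraries labelled *Mgp*-KO than in any wild-type library, at 44.1% and 30.7% of the wild-type mean. *Cdh13* was higher in each library labelled *Mgp*-KO than in any wild-type library, at 156% of the wild-type mean. The other 6 genes, *Adipoq* and *Adipor1* among them, overlapped between the groups. Groups without overlap were thus found for 3 of 9 genes, against 3.5% of all tested genes (2.11% lower and 1.39% higher). In the test over all genes without further terms (limma, Benjamini-Hochberg adjustment), 0 of the 9 had an adjusted p under 0.05, where 0.0656% of tested genes did. *Adipor2*, *Rbp4* and *Cdh13* had an unadjusted p under 0.05 (10.4% of tested genes did). edgeR also called 0 of the 9 (0.0219% of tested genes) and DESeq2 called 2, *Adipor2* and *Rbp4*, both lower (1.55% of tested genes were called lower). With a term for the replicate sets in limma, *Adipor2* and *Rbp4* passed (2.36% of tested genes passed, 1.54% lower). In bulk tissue, fewer cells of a type cannot be told apart from less RNA per cell.

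**Figure D1:**
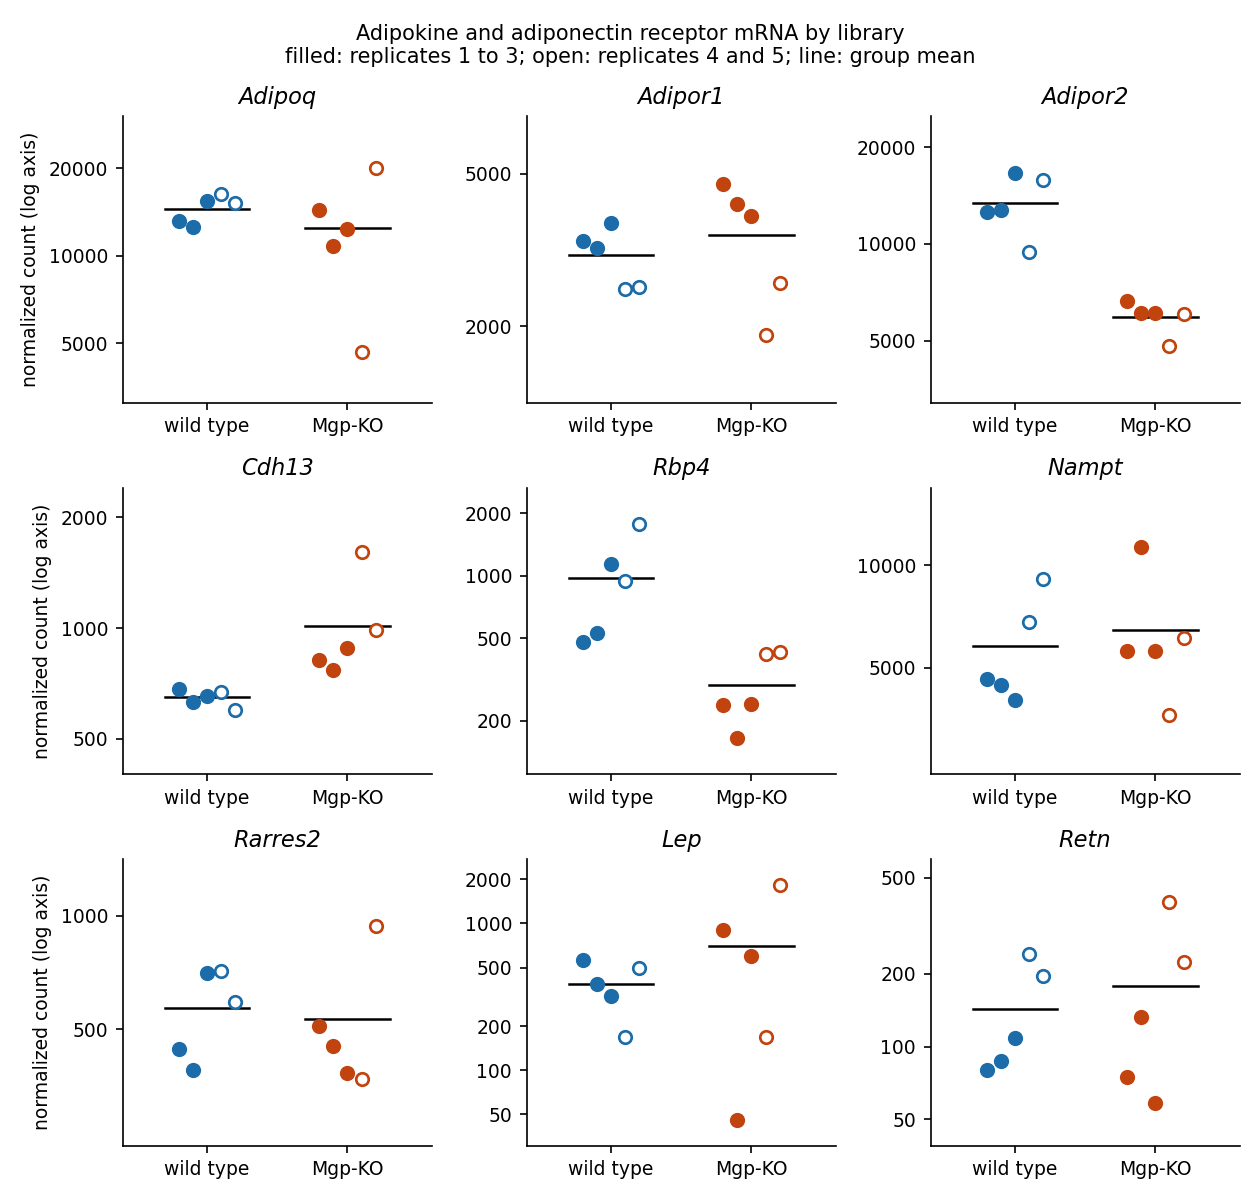
Normalized counts (log axis) of the 9 genes in each library, with wild type on the left and the libraries labelled *Mgp*-KO on the right of each panel. Filled points are replicates 1 to 3, open points replicates 4 and 5, and lines are group means. The points of *Adipor2*, *Rbp4* and *Cdh13* do not overlap between the groups, and those of the other 6 genes do.

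Levels were compared between genes per kilobase of merged exons (GENCODE, GRCm38). In wild type, *Adipoq* was the most abundant of the 9, at 10504 ± 1141 normalized counts per kb (SD, n = 5), 90.8 times the level of *Lep*. *Adipor2* followed at 2247 ± 481 per kb, below *Adipoq* in all 5 libraries and with no overlap. *Nampt* (1147 ± 425 per kb), *Rbp4* (726 ± 392 per kb) and *Adipor1* (609 ± 106 per kb) came next, and neighbours in this order overlapped in range, as did *Adipor2* and *Nampt*. All 3 lay above *Rarres2* (214 ± 55.7 per kb) without overlap. At the low end, *Lep* (116 ± 46.5 per kb), *Retn* (90.3 ± 45.7 per kb) and *Cdh13* (57.7 ± 2.96 per kb) each overlapped with their neighbours. In the libraries labelled *Mgp*-KO, *Nampt* had a mean of 1276 ± 568 per kb and *Adipor2* of 991.5 ± 113 per kb, and their ranges overlapped (720 to 2236 and 803 to 1110). The order depended on the length used: per kilobase of the longest transcript, *Cdh13* stood at 142 ± 7.27 in wild type and *Lep* was lowest at 119 ± 47.8, and *Adipor1* (889 ± 155) came before *Rbp4* (839.97 ± 453).

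**Figure D2:**
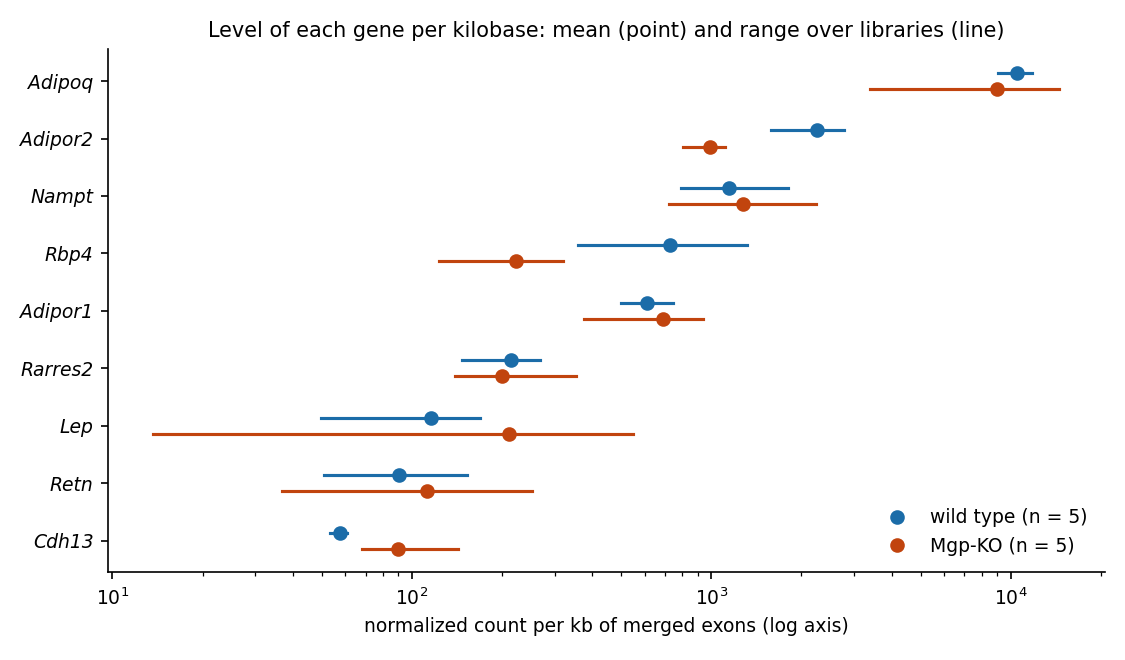
Level of each gene in normalized counts per kilobase of merged exons (log axis), with wild type above and the libraries labelled *Mgp*-KO below for each gene (n = 5 each). Points are means and lines span the lowest to the highest library. *Adipoq* is highest in both groups, and the ranges of *Adipor2*, *Rbp4* and *Cdh13* are apart between the groups.

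*Adipor2* lies on the minus strand at chr6:119353150-119417704 (GRCm38), 17.5 Mb from *Mgp* on the same chromosome. Per library, it had normalized counts of 12541, 12735, 16622, 9444 and 15837 in wild-type libraries 1 to 5 and 6638, 6071, 6090.3, 4799.6 and 6043 in libraries 1 to 5 labelled *Mgp*-KO. The highest library labelled *Mgp*-KO thus stayed below the lowest wild-type library, and the coefficient of variation within the libraries labelled *Mgp*-KO, 11.4%, was the smallest of the 9 genes in that group. The means were 13436 ± 2878 in wild type and 5928 ± 678 (SD, n = 5), a log2 fold change of -1.16 (standard error 0.21, 95% interval -1.61 to -0.71) and an adjusted p of 0.0518 in limma. Fold changes here and below are on the log2(normalized count + 1) scale. The exact permutation test gave p = 0.00794 (two-sided, unadjusted, 5 against 5), the smallest value that this design allows. Any gene without overlap gets this value, and those of the 9 genes that overlapped gave 0.413 to 0.937. The difference was of like size in replicates 1 to 3 (-1.14, adjusted p = 0.0130) and in replicates 4 and 5 (-1.18, adjusted p = 0.679), and with the set term its adjusted p was 0.0139. Without libraries 4 and 5 labelled *Mgp*-KO it was -1.07 (adjusted p = 0.0345). Of the 135 tested genes that lie between *Adipor2* and *Mgp*, 4 (2.96%) passed with the set term, near the 2.36% of all tested genes. This share does not bear on *Adipor2* itself, and the part of its position in the difference was not tested.

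RefSeq promoter windows of 300 bases (GRCm38.p6, from 250 before to 50 after an annotated start) were matched for 7 of the 9 genes, and no window was used for *Rarres2* and *Cdh13*. The windows of the genes that were lower in all libraries labelled *Mgp*-KO, *Adipor2* and *Rbp4*, are shown with that of *Adipor1*, the receptor that overlapped between groups. *Rbp4* has a pair of windows, upstream (chr19:38125272-38125571, minus strand) and downstream (chr19:38124762-38125061, minus strand). The *Adipor2* window is chr6:119388685-119388984 (minus strand), inside the GENCODE span of the gene, and the first *Adipor1* window is chr1:134415128-134415427 (plus strand). Capitals mark matches on either strand to the letters of 6 elements: TATAAA, the TATA box; CCAAT, the box of that name; GGGCGG, the GC box; CACGTG, the E-box; AGGTCA, a nuclear receptor site; and TCACNCCAC, the sterol regulatory element.
Adipor2: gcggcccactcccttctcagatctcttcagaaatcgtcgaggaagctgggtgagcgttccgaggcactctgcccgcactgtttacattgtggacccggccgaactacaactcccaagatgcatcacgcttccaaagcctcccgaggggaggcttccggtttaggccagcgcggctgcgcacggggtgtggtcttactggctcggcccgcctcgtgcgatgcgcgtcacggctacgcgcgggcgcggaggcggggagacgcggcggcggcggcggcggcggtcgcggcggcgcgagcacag
Rbp4 upstream: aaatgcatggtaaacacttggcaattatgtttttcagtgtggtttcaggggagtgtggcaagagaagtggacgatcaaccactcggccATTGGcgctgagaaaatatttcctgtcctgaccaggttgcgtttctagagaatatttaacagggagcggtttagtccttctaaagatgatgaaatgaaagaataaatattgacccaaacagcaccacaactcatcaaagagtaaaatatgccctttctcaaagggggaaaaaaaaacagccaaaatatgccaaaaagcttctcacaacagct
Rbp4 downstream: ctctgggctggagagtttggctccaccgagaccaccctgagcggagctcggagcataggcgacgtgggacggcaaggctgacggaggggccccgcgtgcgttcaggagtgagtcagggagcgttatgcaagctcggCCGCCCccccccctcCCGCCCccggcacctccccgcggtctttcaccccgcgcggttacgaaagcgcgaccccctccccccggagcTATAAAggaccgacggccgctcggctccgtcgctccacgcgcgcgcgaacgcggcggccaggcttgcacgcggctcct
Adipor1: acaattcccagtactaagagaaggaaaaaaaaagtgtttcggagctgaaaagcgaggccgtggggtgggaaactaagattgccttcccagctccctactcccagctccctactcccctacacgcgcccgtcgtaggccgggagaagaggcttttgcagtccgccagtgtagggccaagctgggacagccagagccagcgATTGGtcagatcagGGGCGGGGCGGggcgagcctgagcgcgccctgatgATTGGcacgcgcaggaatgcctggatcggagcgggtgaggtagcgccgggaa
The *Adipor2* window held none of these letters at a G and C content of 68.7%. The downstream *Rbp4* window held 1 TATAAA at position -28 from the start and a pair of GGGCGG matches on the other strand, and the upstream window 1 CCAAT match. The first *Adipor1* window held a pair of CCAAT matches and a pair of overlapping GGGCGG matches, and the second, not printed, at chr1:134415414-134415713, held 3 GGGCGG matches on either strand and no CCAAT. Of 32851 such windows, 13.6% held TATAAA, 37.4% CCAAT, 35.7% GGGCGG, 7.15% CACGTG, 16.3% AGGTCA and 1.24% TCACNCCAC.

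*Adipor1*, at chr1:134415378-134433351 on the plus strand, encodes the receptor linked to AMP-activated protein kinase. Normalized counts of the gene were 3339, 3203, 3731, 2508 and 2528 in wild-type libraries 1 to 5 and 4712, 4177, 3884, 1892 and 2601 in libraries 1 to 5 labelled *Mgp*-KO. The groups overlapped, since replicates 4 and 5 were low in both. The means were 3062 ± 533 and 3453 ± 1168 (SD, n = 5), a log2 fold change of 0.11 with a 95% interval of -0.46 to 0.69 (adjusted p = 0.918). Within replicates 1 to 3 the libraries labelled *Mgp*-KO were all above wild type (15.5% of tested genes were), by 0.31 on the log2 scale (adjusted p = 0.198), and within replicates 4 and 5 the difference was -0.18 (adjusted p = 0.865). Without libraries 4 and 5 labelled *Mgp*-KO it was 0.49 (adjusted p = 0.198), with the lower level of wild type 4 and 5 still in that comparison.

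The balance of the pair of receptors was then compared within each library. Per kilobase, the ratio of *Adipor2* to *Adipor1* was 3.16, 3.34, 3.74, 3.16 and 5.26 in wild-type libraries 1 to 5 and 1.18, 1.22, 1.32, 2.13 and 1.95 in libraries 1 to 5 labelled *Mgp*-KO. The ratio was above 1 in all 10 libraries, so *Adipor2* was the more abundant receptor transcript throughout, and the groups did not overlap. Mean ratios were 3.73 ± 0.888 in wild type and 1.56 ± 0.446 (SD, n = 5). This ratio was chosen after the values had been seen, with *Adipor2* already without overlap, and is given with no test.

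**Figure D3:**
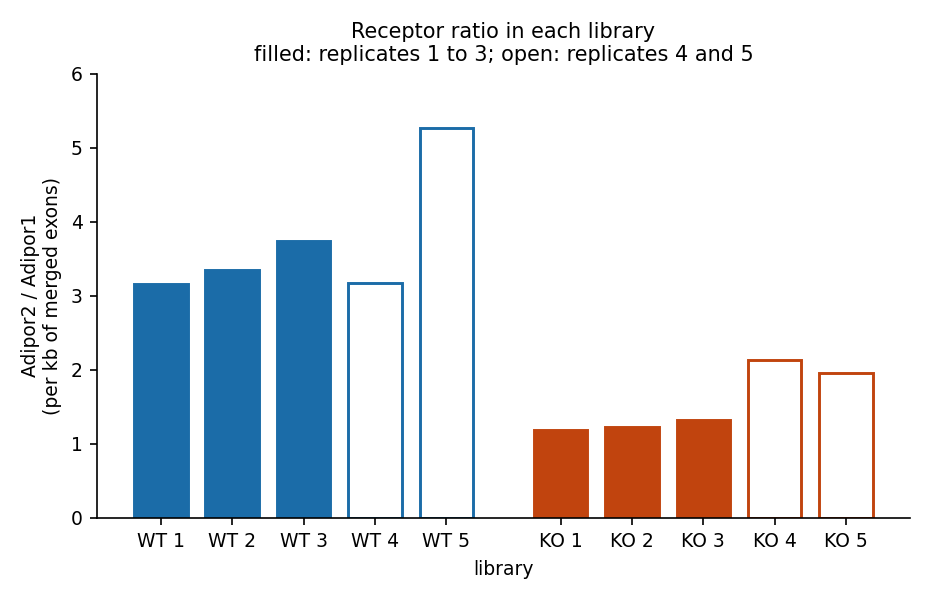
Ratio of *Adipor2* to *Adipor1*, each in normalized counts per kilobase of merged exons, for each library. Filled bars are replicates 1 to 3 and open bars replicates 4 and 5, in blue for wild type and red for the libraries labelled *Mgp*-KO. The wild-type bars lie between 3.16 and 5.26 and the others between 1.18 and 2.13.

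*Cdh13* spans 1041 kb at chr8:118283733-119324921 on the plus strand. Its normalized counts were 685, 631, 655, 669.8 and 600.5 in wild-type libraries 1 to 5 and 820.0, 767, 883, 1606 and 991 in libraries 1 to 5 labelled *Mgp*-KO. Wild-type libraries were nearly level, with a coefficient of variation of 5.12%, whereas the library labelled *Mgp*-KO 4 was far above the others of its group. The means were 648 ± 33.2 and 1013 ± 342 (SD, n = 5), a log2 fold change of 0.59 (standard error 0.21, 95% interval 0.14 to 1.04). The adjusted p was 0.320 in limma and 0.0989 with the set term. The exact permutation test gave p = 0.00794 (two-sided, unadjusted, 5 against 5), the value of any gene without overlap. The difference was 0.32 in replicates 1 to 3 (adjusted p = 0.148) and 0.99 in replicates 4 and 5 (adjusted p = 0.679). Leaving out the library labelled *Mgp*-KO 4 brought the difference to 0.41 on the log2 scale, and without both libraries labelled *Mgp*-KO 4 and 5 it was 0.34 (adjusted p = 0.223).

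T-cadherin is present on endothelial cells as well as on other cells of the vessel wall. Over all libraries the log2 fold changes of 8 endothelial markers ranged from 0.12 for *Tek* to 0.73 for *Esam*, with 0 of 8 past the threshold and 1 with an unadjusted p under 0.05 (10.4% of all tested genes did). In replicates 1 to 3 they ranged from -0.20 for *Tek* to 0.59 for *Esam*, with *Emcn* at -0.058. Their summed level was 16235 to 25299 normalized counts in wild type and 18912 to 45641 in those labelled *Mgp*-KO, with the highest sum in *Mgp*-KO 4, the library with the highest *Cdh13*. The 8 smooth muscle and pericyte markers summed to 10030 to 15845 and 9593 to 14352. The part of these cells in the level of *Cdh13* was not tested.

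*Adipoq*, at chr16:23146536-23158028 on the plus strand, encodes the ligand of these receptors. The libraries held normalized counts of 13161, 12547, 15453, 16236 and 15131 in wild-type libraries 1 to 5 and 14316, 10789, 12342, 4675 and 20088 in libraries 1 to 5 labelled *Mgp*-KO. Wild-type libraries lay close together, while both the lowest and the highest library of all 10 were in the other group, the labelled *Mgp*-KO 4 and 5. The means were 14506 ± 1575 and 12442 ± 5591 (SD, n = 5), a log2 fold change of -0.36 with a 95% interval of -1.10 to 0.38 (adjusted p = 0.766). In replicates 1 to 3 it was -0.14 with a narrower interval, -0.50 to 0.22 (adjusted p = 0.647), and without libraries 4 and 5 labelled *Mgp*-KO it was -0.22 (adjusted p = 0.521). The 8 general adipocyte markers, such as *Plin1* and *Fabp4*, summed to 282255 to 602618 normalized counts in wild type and 319729 to 472576 in those labelled *Mgp*-KO. In *Mgp*-KO 4, where *Adipoq* was lowest, the lipid droplet and lipase genes *Cidec* (4830.4), *Lipe* (6129) and *Pnpla2* (11595) were also the lowest of the 10 libraries and *Plin1* (3048) the second lowest, while *Lpl* (252808) and *Fabp4* (149140) made up most of its sum of 466592. Other members went the opposite way in that library, with *Acvr1c* (3312) the highest of the 10 libraries and *Lpl* the second highest. The part of these cells in the level of *Adipoq* was not tested.

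Adiponectin is folded and assembled into multimers in the endoplasmic reticulum. Of 8 genes for this assembly, 0 passed the threshold and 0 had an unadjusted p under 0.05, with a median log2 fold change of 0.011 against 0.026 over all tested genes. The largest differences were in *Ero1l*, the oxidase that forms disulphide bonds (-0.40, adjusted p = 0.620), and *Gstk1*, also called DsbA-L (0.23, adjusted p = 0.834). Of 6 transcription factors that act on adipokine genes, 0 passed, and *Cebpb*, a C/EBP factor of adipocyte differentiation, passed with the set term (-1.06, adjusted p = 0.423 without and 0.0420 with the term). *Srebf1*, the gene of the lipogenic factor SREBP-1, stood at -0.97 (adjusted p = 0.531), whereas *Pparg* and *Cebpa* stood at 0.10 and -0.10.

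*Rbp4* lies at chr19:38116629-38125281 on the minus strand. Its normalized counts were 481, 531, 1143, 947 and 1774 in wild-type libraries 1 to 5 and 238, 166, 242, 421 and 428 in libraries 1 to 5 labelled *Mgp*-KO. The groups did not overlap, although the highest library labelled *Mgp*-KO (428) came close to the lowest wild-type library (481). The means were 975 ± 526 and 299 ± 118 (SD, n = 5), a log2 fold change of -1.63 (standard error 0.38, 95% interval -2.47 to -0.79). The adjusted p was 0.126 in limma. The exact permutation p was 0.00794 (two-sided, unadjusted, 5 against 5), the value of any gene without overlap. *Rbp4* was also higher in replicates 4 and 5 than in 1 to 3 within both groups, by 0.98 on the log2 scale (adjusted p = 0.0125). With the set term, which removes that spread from the error, the adjusted p for the genotype label was 0.0141. The difference was -1.64 in replicates 1 to 3 (adjusted p = 0.0450), -1.61 in replicates 4 and 5 (adjusted p = 0.679) and -2.02 without libraries 4 and 5 labelled *Mgp*-KO (adjusted p = 0.0385), where the set difference adds to that of the label.

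The liver is the main source of circulating retinol binding protein, and liver transcripts were near 0 here: the summed level of 5 hepatocyte markers was at most 8.79 normalized counts in 9 libraries and 167 in the one labelled *Mgp*-KO 4. Of the partners of retinol binding protein, the carrier transthyretin (*Ttr*) stayed at or below 9.71 normalized counts, the uptake receptor *Stra6* at or below 2.21 and its relative *Stra6l* at or below 3.24 in every library. Of the 4 genes of retinol transport and uptake that could be tested, 0 passed. *Dhrs3*, which reduces retinal to retinol, differed by -0.37 (adjusted p = 0.678).

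*Lep*, at chr6:29060220-29073877 on the plus strand, had the widest range of the 9 over all 10 libraries. Normalized counts of *Lep* were 566, 389, 319.8, 167 and 498 in wild-type libraries 1 to 5 and 895, 45.9, 597, 168 and 1830.0 in libraries 1 to 5 labelled *Mgp*-KO. The highest and the lowest of all 10 libraries, 39.9-fold apart, were both labelled *Mgp*-KO. The means were 388 ± 156 and 707 ± 713 (SD, n = 5), and the log2 fold change was 0.078 with a 95% interval of -1.72 to 1.88 (adjusted p = 0.983), so a difference of several-fold in either direction was not detectable with these libraries. The sign depended on single libraries: leaving out each in turn gave -0.49 to 0.83, and 4 of the 10 omissions turned it negative, as did leaving out both libraries labelled *Mgp*-KO 4 and 5 (-0.29, adjusted p = 0.870). The tested genes with the closest pattern to *Lep* over the 10 libraries were *Slc6a13*, *Nnat*, *Gm44642*, *Fam26f* and *Fgf1*, with root mean square differences of 0.57 to 0.74 on the mean-centred log2 scale, against a median of 1.48 over all tested genes and a standard deviation of *Lep* itself of 1.396. *Nnat* is also one of the white adipocyte markers, of which 3 could be tested, and none of the 3 passed. Summed levels of that list were 1074 to 1696 in wild type and 839.9 to 2913 in those labelled *Mgp*-KO.

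The leptin receptor gene *Lepr* lay below the filter, at 2.94 to 8.41 normalized counts in 9 libraries and 37.2 in the one labelled *Mgp*-KO 4. Of 7 tested genes of leptin receptor signalling, 0 passed and 0 had an unadjusted p under 0.05. *Socs3*, the feedback inhibitor of the receptor, differed by 0.57 (adjusted p = 0.743) and *Stat3*, its transcription factor, by 0.16 (adjusted p = 0.874).

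*Nampt*, at chr12:32819545-32853349 on the plus strand, differed in opposite directions in the replicate sets. Its normalized counts were 4622, 4437, 4009, 6797 and 9116 in wild-type libraries 1 to 5 and 5593, 11299, 5584, 3637 and 6123 in libraries 1 to 5 labelled *Mgp*-KO. In replicates 1 to 3 every library labelled *Mgp*-KO was above every wild-type library, and in replicates 4 and 5 every one was below, a pattern that 2.9% of tested genes showed in one order or the other. Over all libraries the means were 5796 ± 2147 and 6447 ± 2873 (SD, n = 5), a log2 fold change of 0.13 with a 95% interval of -0.57 to 0.82 (adjusted p = 0.930). It was 0.70 in replicates 1 to 3 (adjusted p = 0.190) and -0.74 in replicates 4 and 5 (adjusted p = 0.679), and 0.36 without libraries 4 and 5 labelled *Mgp*-KO (adjusted p = 0.575). The interaction of genotype label and set was -1.44 (standard error 0.48), with an unadjusted limma p of 0.0135 and an adjusted p of 0.455, and 0 of the 9 genes passed for the interaction (0.00729% of tested genes did).

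Of 12 tested genes of NAD salvage and use, 0 passed without the set term. *Nnmt*, nicotinamide N-methyltransferase, which removes the substrate of *Nampt* by methylation, had means of 256 ± 191 in wild type and 96.9 ± 113 in those labelled *Mgp*-KO (SD, n = 5), a difference of -1.76 with an adjusted p of 0.395 without and 0.0439 with the set term. *Nadk2*, the mitochondrial NAD kinase, differed by -0.57 (adjusted p = 0.559).

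*Rarres2* lies at chr6:48569696-48572789 on the minus strand. Normalized counts of *Rarres2* were 445, 390.1, 706, 714 and 590.1 in wild-type libraries 1 to 5 and 512, 451, 383, 369 and 941 in libraries 1 to 5 labelled *Mgp*-KO. The groups overlapped, and the labelled *Mgp*-KO 5 was the highest of all 10. The log2 fold change was -0.15 with a 95% interval of -0.76 to 0.46 (adjusted p = 0.896), and it was -0.16 and -0.14 in the replicate sets and -0.31 without libraries 4 and 5 labelled *Mgp*-KO (adjusted p = 0.502). *Rarres2* shares 892 exon bases with *Lrrc61* on the opposite strand, which had a mean of 345 normalized counts, and the strand setting of the counting was not stated, so their reads may be shared. Of the chemerin receptors, *Cmklr1* differed by -0.37 (adjusted p = 0.648) and *Ccrl2* by 0.47 (adjusted p = 0.736), while *Gpr1* lay below the filter at 12.2 normalized counts or less.

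*Retn*, at chr8:3655770-3660110 on the plus strand, followed the replicate sets rather than the genotype labels. Its level, in normalized counts, was 80.1, 86.9, 109, 242 and 196 in wild-type libraries 1 to 5 and 74.6, 133, 58.3, 398 and 224 in libraries 1 to 5 labelled *Mgp*-KO. All 4 libraries of replicates 4 and 5 were above all 6 of replicates 1 to 3. The set difference was 1.54 on the log2 scale (adjusted p = 0.00120). The difference by genotype label was 0.11 with a 95% interval of -1.01 to 1.22 (adjusted p = 0.965). It stood at -0.13 in replicates 1 to 3 (adjusted p = 0.846) and at 0.46 in replicates 4 and 5 (adjusted p = 0.727). It was -0.62 without libraries 4 and 5 labelled *Mgp*-KO (adjusted p = 0.446), where the high wild type 4 and 5 remain. Its relative *Retnla* and the proposed resistin binding protein *Cap1* differed by -0.093 and 0.035 (adjusted p = 0.955 and 0.969). Another relative, *Retnlg*, lay below the filter and was not tested. It stood at 0 to 2.94 normalized counts in wild type and 5.86 to 36.2 in those labelled *Mgp*-KO.

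For the set difference as such, 3 of the 9 genes passed, *Retn* and *Rbp4* higher and *Adipor1* lower in replicates 4 and 5, against 38.2% of all tested genes. The set difference of *Adipor1* was -0.69 on the log2 scale (adjusted p = 0.00561). Depth and mitochondrial ribosomal RNA moved with the sets, as given above, and their part in these differences was not tested. In replicates 1 to 3 alone, the genes past the threshold by genotype label were *Rbp4* and *Adipor2*, both lower (1.65% of tested genes were called lower). In replicates 4 and 5 alone there were 0 of 9, as there were 0% of tested genes, while *Adipor2*, *Rbp4* and *Cdh13* had an unadjusted limma p under 0.05 (6.23% of tested genes did) and the size of the *Adipor2* and *Rbp4* differences was as large as in replicates 1 to 3. Without libraries 4 and 5 labelled *Mgp*-KO, the same pair passed (0.955% of tested genes were called lower). DESeq2 with a set term called *Adipor2*, *Rbp4* and *Cdh13* (8.72% of tested genes were called), the last with an adjusted p of 0.0272.

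**Figure D4:**
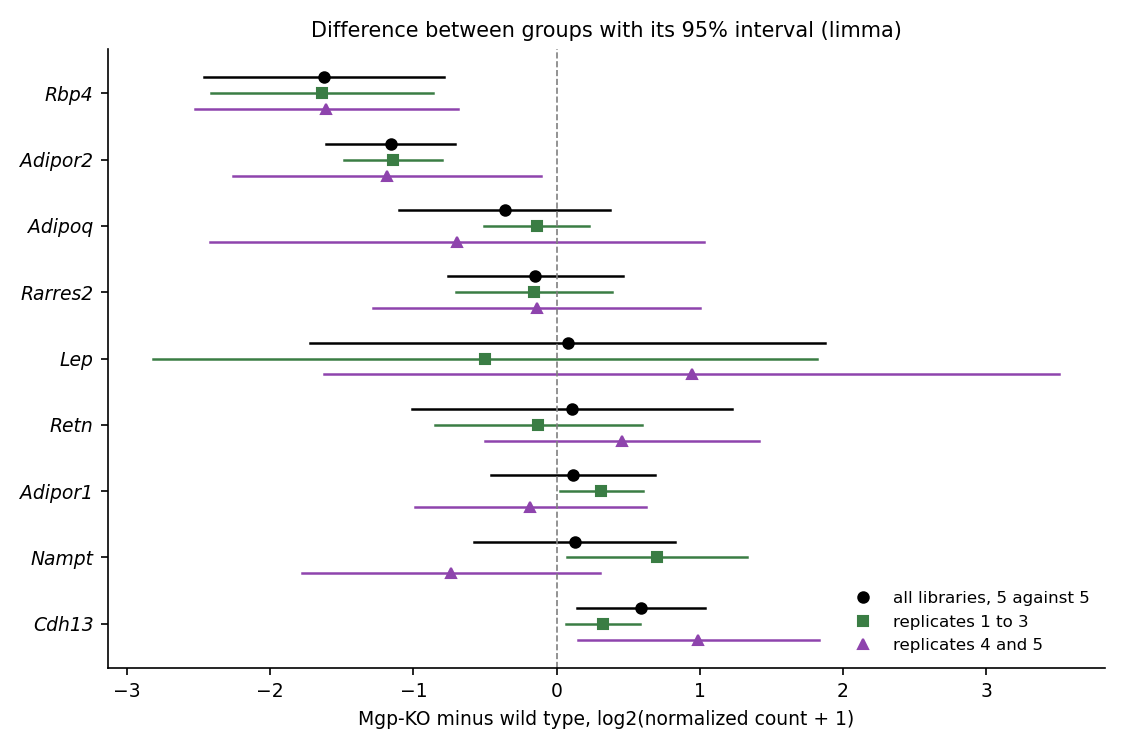
Difference between the libraries labelled *Mgp*-KO and wild type in log2(normalized count + 1) for the 9 genes, with 95% intervals from limma. Circles use all libraries, squares replicates 1 to 3 and triangles replicates 4 and 5. The estimates of *Rbp4* and *Adipor2* lie below 0 in all 3 fits and that of *Cdh13* above 0, and *Nampt*, *Lep*, *Retn* and *Adipor1* change sign between the sets.

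The genes with the closest pattern to *Adipor2* over the 10 libraries were *Pygl*, *Nat8l*, *Clec11a*, *Gpd1* and *Tkt*, with root mean square differences of 0.17 to 0.22 on the mean-centred log2 scale, against a standard deviation of *Adipor2* of 0.63 and a median of 0.79 over all tested genes. Their log2 fold changes ranged from -0.98 for *Clec11a* to -1.37 for *Tkt*. For *Adipoq* the closest were *Slc25a5*, *Ntpcr*, *Hagh*, *Tmem14c* and *Timmdc1*, at 0.11 to 0.17. Both sets share libraries and depth with the genes they resemble, and were picked for likeness over these same libraries. Fold changes near that of *Adipor2* follow from this choice, and the likeness is given as a description.

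Of 8 brown adipocyte markers, 0 passed in the main limma test and 4 had an unadjusted p under 0.05 (10.4% of all tested genes did). *Ucp1* was the only one of the 8 without overlap between the groups (2.11% of all tested genes were lower without overlap). It stood at -2.70 (adjusted p = 0.0601, and 0.0127 with the set term). Summed levels of the 8 were 78717 to 172469 in wild type and 28128 to 69313 in those labelled *Mgp*-KO, without overlap. This rested on *Ucp1*: sums of the other 7, taken after the values were seen, overlapped at 37394 to 63054 and 25927 to 53672. *Ucp1*, *Dio2* and *Elovl3* passed with the set term, 3 of 8 against 2.36% of all tested genes. *Cidea* at -0.44 and *Ebf2* at -0.031 did not, nor did *Zic1*, which stood at 0.51 (1.37 in replicates 1 to 3 and -0.77 in replicates 4 and 5). Of the 8 general adipocyte markers 0 passed and 5 had negative log2 fold changes, with *Plin1* at -1.29 (adjusted p = 0.415), the only one of them with an unadjusted p under 0.05, and *Lpl* at 0.44. The part of these cells in the level of *Adipor2* and *Rbp4* was not tested. Skeletal muscle markers varied from 41.1 to 38153 normalized counts in sum over the libraries, with the highest sums in the labelled *Mgp*-KO 2 and 5, which held the lowest and the highest *Lep*.

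Around the 9 genes, 11 lists of ligands, receptors and signalling partners named 99 genes, of which 79 could be tested. In the main limma test 0 of the 79 passed, and 8 (10.1%) had an unadjusted p under 0.05, near the 10.4% of all tested genes. With the set term 3 (3.80%) passed, all lower (*Cebpb*, *Nnmt* and *Apln*), against 2.36% of all tested genes. DESeq2 called 2 (2.53%), *Apln* and *Paqr9*, against 2.71% of all tested genes. In replicates 1 to 3 alone limma called 4 (5.06%), *Paqr6* and *Gstk1* higher and *Paqr9* and *Srebf1* lower, against 3.54% of all tested genes. Of 14 genes downstream of the adiponectin receptors 0 passed. *Prkaa2*, a catalytic subunit of AMP-activated protein kinase, differed by -0.92 (adjusted p = 0.462) and *Prkag2*, a regulatory subunit, by 0.50 (adjusted p = 0.703). *Appl2*, an adaptor of these receptors singled out after its values were seen, was the only gene of that list of 14 without overlap (1.39% of all tested genes were higher without overlap), at 439 ± 22.3 in wild type and 591 ± 146 in those labelled *Mgp*-KO (SD, n = 5; log2 fold change 0.40, adjusted p = 0.464).

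Among the other genes of the progestin and adipoQ receptor (PAQR) family, to which the adiponectin receptors belong, 5 of 8 tested had negative log2 fold changes, the median was -0.69 and 0 passed in limma. *Paqr9* had means of 1954 ± 809 and 879 ± 297 (SD, n = 5), a difference of -1.14 (adjusted p = 0.170 in limma, 0.0526 with the set term and 0.0188 in DESeq2). *Paqr6* differed by 1.48 (adjusted p = 0.603), with 2.35 in replicates 1 to 3 (adjusted p = 0.00999) and 0.17 in replicates 4 and 5 (adjusted p = 0.971). The C1q and TNF related proteins are paralogs of adiponectin. Of 7 tested, 0 passed, with the largest differences in *C1qtnf4* (1.79, adjusted p = 0.548) and *C1qtnf7* (0.81, adjusted p = 0.566).

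Of 9 other adipokines that could be tested, 0 passed in limma without the set term. *Apln*, the gene of the vasoactive peptide apelin, had the lowest fold change of all 11 lists. The gene had normalized counts of 186, 212, 216, 182 and 277 in wild-type libraries 1 to 5 and 64.8, 6.88, 53.4, 68.0 and 72.7 in libraries 1 to 5 labelled *Mgp*-KO, without overlap between the groups. The log2 fold change was -2.32 (adjusted p = 0.119 in limma, 0.0399 with the set term and 0.00149 in DESeq2). *Sfrp5*, an antagonist of WNT ligands, differed by -1.80 (adjusted p = 0.335), while *Cfd*, which encodes adipsin, differed by 0.19 (adjusted p = 0.887).

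**Figure D5:**
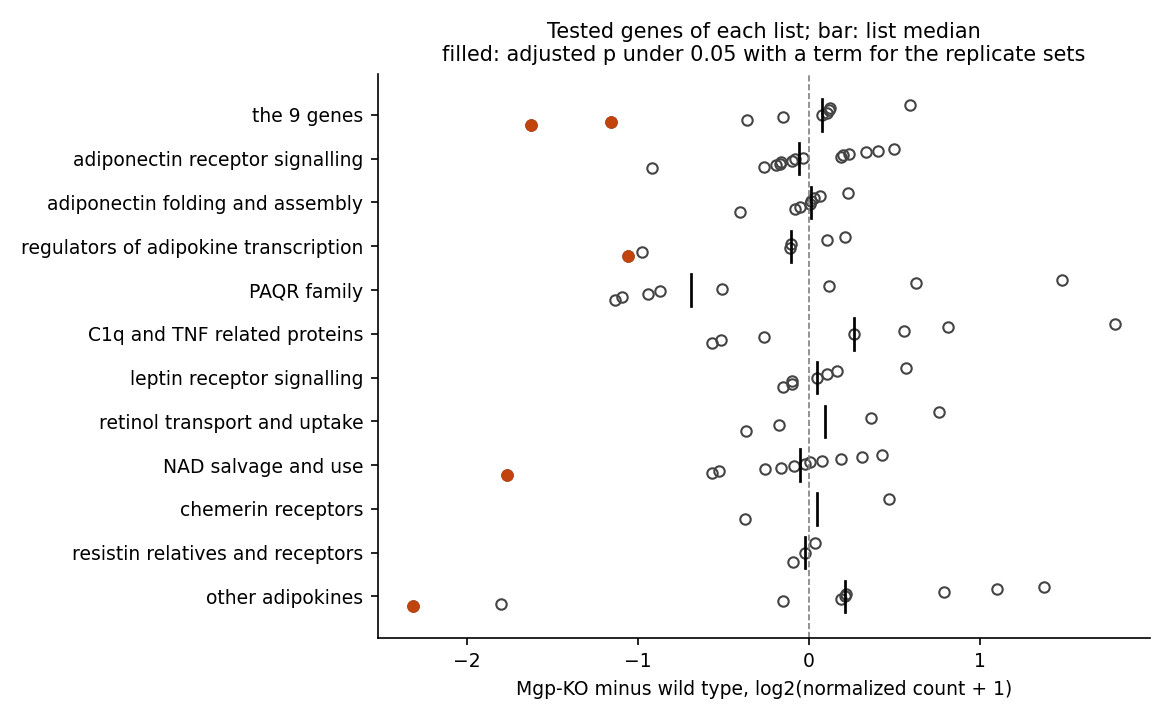
Difference between the libraries labelled *Mgp*-KO and wild type in log2(normalized count + 1) for the tested genes of each list, 1 point per gene and a bar at the list median. Filled points had an adjusted p under 0.05 with a term for the replicate sets. They are *Rbp4* and *Adipor2* among the 9 genes, *Cebpb*, *Nnmt* and *Apln* elsewhere.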

How the data were processed

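Single reads of 50 bases from SMARTer libraries were aligned by the authors to mm10 with STAR, which also counted them on genes. The deposited values are these counts divided by DESeq2 size factors, a signal that is never negative. The annotation release and the strand setting were not given in the sources used here. All values (100%) were whole multiples of 1 read within 0.01 reads, and the reads recovered in this way were used for edgeR 4.0.16 and DESeq2 1.42.0.

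Groups and replicate numbers come from the labels, and the methods describe 5 pairs of *Mgp*-KO and wild-type mice without saying what paired them. The main test was limma 3.58.1 (R 4.3.3, mean-variance trend) on log2(normalized count + 1) of the 13714 genes with a mean of at least 10, 5 against 5 with no covariate, Benjamini-Hochberg adjusted over all of them, with a threshold of 0.05. Fits were also run with a term for replicates 4 and 5, within each set, and for the interaction of set and genotype label. The genes and lists were chosen with earlier results of these data known. Genes outside the 9 are named if they bear on the labels, are among the 2 largest differences of a related list or passed the main threshold, are among the 5 most like *Adipor2*, *Adipoq* or *Lep*, or are cell type markers. *Appl2*, *Lrrc61* and those named below the filter were added after their values were seen, as were *Pparg*, *Cebpa*, *Cfd*, the receptor ratio and the sum of brown adipocyte markers without *Ucp1*. Tests were checked on simulated counts without a difference between the replicate sets, so that check does not cover such a difference. Intervals cover the spread between libraries, and 3 reads, the floor for a count of 0, correspond to 2.15 to 5.19 normalized counts, for counting error only. Coordinates are from GENCODE M21, which held 25666 of the listed symbols (94.1%), and promoter windows from RefSeq. One gene of the related lists is not reported by name here. The main test was repeated under 37 other settings, 10 of them added after the data were seen.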

Additional observations from a re-analysis of the deposited data

Results flagged for a closer look

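The difference of *Nampt* by genotype label was 0.70 on the log2 scale in replicates 1 to 3 and -0.74 in replicates 4 and 5. All libraries of each set moved in that direction, and the interaction was -1.44 (limma, unadjusted p = 0.0135, adjusted p = 0.455), so it did not pass the correction over all genes.

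The library labelled *Mgp*-KO 4 stood apart for *Cdh13*, at 1606 normalized counts against 767 to 991 in the others of its group. The library labelled *Mgp*-KO 5 stood apart for *Rarres2*, at 941 normalized counts against 369 to 512. These were the outlying values by Dixon's criterion in 2 of 18 combinations of gene and group, and chance flags about 1 in 20.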

How the results depend on the processing

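*Adipor2* and *Rbp4* were lower and *Cdh13* higher in the libraries labelled *Mgp*-KO under all 37 other settings, and the calls, not the directions, depended on the model. The number of the 9 genes past the threshold was 0 in the main test and 2 (*Adipor2* and *Rbp4*) with the set term, with a replicate block in limma and edgeR, in DESeq2, in replicates 1 to 3 and without the libraries labelled *Mgp*-KO 4 and 5. It was 3 in DESeq2 with the set term, 1 (*Rbp4*) with the block and without replicate 2 of both groups, and 0 to 1 with each library left out, where *Adipor2* passed without wild type 4 and without *Mgp*-KO 4. With the set term and each library left out it was 2 each time. Over all tested genes the count was 9 in the main test, 3 in edgeR, 371 in DESeq2, 1196 in DESeq2 with the set term, 324 with the set term, 270 with the block in limma and 222 in edgeR, 486 in replicates 1 to 3, 0 in replicates 4 and 5 (855 with an unadjusted p under 0.05), 267 without the libraries labelled *Mgp*-KO 4 and 5, 1 without a filter, 29 at a pseudocount of 10, 34 with quantile normalization and 0 to 93 with each library left out.

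*Adipor2* stood at -1.16 with the set term, with the block and with the block in edgeR, at -1.18 in DESeq2 with and without the set term, -1.14 in replicates 1 to 3 and -1.07 without the libraries labelled *Mgp*-KO 4 and 5, with adjusted p from 3.17e-09 to 0.679 over all settings. *Rbp4* stood at -1.63 with the set term and with the block, -1.64 with the block in edgeR and in replicates 1 to 3, -1.70 in DESeq2, -1.71 in DESeq2 with the set term, -1.62 with the block and without replicate 2, and -2.02 without the libraries labelled *Mgp*-KO 4 and 5, with adjusted p from 2.04e-07 to 0.679. *Cdh13* stood at 0.61 in DESeq2 with the set term (adjusted p 0.0272 to 0.679).

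Signs turned only for genes that passed in no setting. *Lep* stood at -0.50 in replicates 1 to 3 and -0.29 without *Mgp*-KO 4 and 5, but at 0.86 in edgeR, 0.87 in DESeq2, 0.79 in DESeq2 with the set term and 0.94 in replicates 4 and 5, against 0.078 in the main test. *Retn* stood at -0.13 in replicates 1 to 3, -0.62 without *Mgp*-KO 4 and 5 and -0.020 with the block and without replicate 2, *Nampt* at -0.74 in replicates 4 and 5 and -0.18 with the block and without replicate 2, and *Adipor1* at -0.18 in replicates 4 and 5. With each library left out, ranges were -0.57 to -0.045 for *Adipoq*, -0.49 to 0.83 for *Lep*, -0.27 to 0.42 for *Retn*, -1.84 to -1.37 for *Rbp4*, -0.10 to 0.31 for *Nampt*, -0.38 to -0.041 for *Rarres2*, -0.017 to 0.31 for *Adipor1*, -1.28 to -1.08 for *Adipor2* and 0.41 to 0.68 for *Cdh13*. With the set term as well they were -0.63 to 0.013 for *Adipoq*, -0.58 to 0.88 for *Lep*, -0.075 to 0.28 for *Retn*, -1.77 to -1.41 for *Rbp4*, -0.14 to 0.37 for *Nampt*, -0.36 to 0.056 for *Rarres2*, 0.046 to 0.23 for *Adipor1*, -1.27 to -1.04 for *Adipor2* and 0.42 to 0.65 for *Cdh13*. The cause of these shifts was not tested.

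The labels share replicate numbers between groups. Deviations from the group means of same-numbered libraries correlated at 0.0559 to 0.527, below 0.1 for number 2, and 5 of 10 libraries correlated best with their own number, so the numbers were not taken to pair the mice. The methods speak of pairs of mice without saying what paired them or which libraries belong together. With the block in limma the adjusted p was 0.0231 for *Adipor2* and 0.0179 for *Rbp4*. In wild type, *Lep*, *Retn* and *Cdh13*, and also *Rbp4* and *Adipor1*, changed order per kilobase with the length used.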
